A study of Homo sapiens with 4 samples.

Results

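The data described here are the activities and allelic differences of reporter oligonucleotides that carry single-base variants from the middle introns of FAM13A on chromosome 4. Members were all oligonucleotides whose listed variant position lies in chr4:89760151-89839840, with rs2609255 left out, and the choice used position alone. They were 960 of the 7270 oligonucleotides in the table, carrying 80 of its 606 variants and 28845 of its 218526 sequence tags. The first variant of the stretch was rs74610824 at 89760151 and the last was rs4693976 at 89839840. Neighbouring variants lay a median of 606 bases apart, and the largest gap was 5094 bases. Of the 80 substitutions, 52 were transitions and 28 were transversions. The table names no genome build. The range was chosen in hg19, and in GRCh38.p14 the FAM13A gene held 0 of the 606 listed positions, so exon and intron boundaries were not analysed here and the word introns is taken from the name of the range.

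The study was a massively parallel reporter assay that asked which variants of the FAM13A locus, which association studies tie to chronic obstructive pulmonary disease, change reporter expression in BEAS-2B cells. BEAS-2B is an established, virus-immortalised line of human bronchial epithelium. Array-made oligonucleotides were cloned into a luciferase plasmid backbone, pGL4.10M2, before a minimal promoter (minP), which the labels call weak, or before the stronger promoter of simian virus 40 (SV40). The 4 groups held 1 library each, namely the plasmid input and the reporter RNA of either promoter, the RNA being taken from cells harvested 24 hours after nucleofection. No transfection was repeated, so every error below is a standard error (SE) over tags within 1 transfection, and every p-value measures the spread between tags only. Each variant had 2 alleles, 3 windows named L, C and R, and 2 orientations named F and RC. That gave 6 pairs of alleles, called constructs here, and 12 oligonucleotides per variant. What the window letters mean is not given in the sources used here.

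FAM13A encodes a protein that has been linked to turnover of beta-catenin in lung epithelium. Introns of a long gene can hold enhancers, which raise transcription from a promoter at a distance and act largely without regard to their direction. In a reporter assay of this kind each oligonucleotide is joined to several short barcodes that end up in the transcript. The ratio of a barcode's RNA reads to its plasmid reads then serves as a measure of the activity of the sequence beside it.

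The barcodes are the only sequences that the table holds. They were 11 bases long, and an oligonucleotide of the stretch had 13 to 33 of them, with a median of 30. The lines below give the lowest, a middle and the highest tag for both alleles of the 3 constructs on which the results turn, to show how widely barcodes of 1 sequence differ. They are written in lower case as no base in them has a special role. rs13124775 in window L, orientation F, and rs12649368 in window C, orientation RC, are ranked by their SV40 values, and rs10019681 in window C, orientation RC, by its minP values.
rs13124775 A lowest: catataagggc
rs13124775 A middle: gcggtatagtg
rs13124775 A highest: actagggatac
rs13124775 G lowest: aaacgctcagg
rs13124775 G middle: ggttgtcgaga
rs13124775 G highest: cgctccacgaa
rs12649368 C lowest: gtctgaagggc
rs12649368 C middle: gggaagtcaaa
rs12649368 C highest: tacgaggtcag
rs12649368 T lowest: gtatgggctag
rs12649368 T middle: gcatgtaacgg
rs12649368 T highest: cttgacttcta
rs10019681 C lowest: caatttaacgc
rs10019681 C middle: cgatcaaagcg
rs10019681 C highest: agatactatcc
rs10019681 T lowest: attctcgccat
rs10019681 T middle: caagtataacg
rs10019681 T highest: ttcttgatgcc

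With the SV40 promoter, the A-allele tags of rs13124775 in that construct went from 14 input and 0 RNA reads (catataagggc) through 281 and 237 (gcggtatagtg) to 266 and 562 (actagggatac). Its G-allele tags went from 81 input and 0 RNA reads (aaacgctcagg) through 35 and 5 (ggttgtcgaga) to 20 and 74 (cgctccacgaa). The full ranges of the alleles overlapped, and the G allele held both the lowest and the highest of these tags. The ranges between the quartiles did not overlap, with log2 RNA over input shares of -1.14 to 0.23 for A and -5.05 to -1.43 for G. For rs12649368 with the SV40 promoter, C-allele tags went from 70 input and 0 RNA reads (gtctgaagggc) through 51 and 6 (gggaagtcaaa) to 129 and 170 (tacgaggtcag). Its T-allele tags went from 212 and 12 (gtatgggctag) through 157 and 87 (gcatgtaacgg) to 47 and 250 (cttgacttcta). Here too the full ranges of the alleles overlapped, with the T allele higher at each of the 3 ranks. Between the quartiles, C ran from -3.95 to -1.96 and T from -1.72 to -0.01. For rs10019681 with minP, the middle tags had more RNA than input reads for both alleles, 164 against 61 for C (cgatcaaagcg) and 113 against 45 for T (caagtataacg).

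The 4 libraries held 29398765 (input) and 11086933 (RNA) reads with minP and 26557676 (input) and 24504694 (RNA) reads with SV40 over the whole table. Tags of the stretch had a median of 80 input and 22 RNA reads with minP, and of 70 and 46 with SV40. At least 10 input reads were required per tag, which 25503 tags of the stretch met with minP and 25083 with SV40. Of these, 3562 had 0 RNA reads with minP and 2151 with SV40. A set of 428 tags that begin with TC averaged 4.04 input reads with minP against 129 for the others, so few of them passed. The value of a tag, called the tag ratio, is log2 of its share of RNA reads minus log2 of its share of input reads, with 1 added to each count. The table does not say which allele is the reference, so an allelic difference is the mean tag ratio of the allele that comes later in the alphabet minus that of the earlier.

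Few of the 80 variants changed reporter expression between alleles. With minP, 1 of 459 tested constructs of the stretch passed an adjusted p of 0.05 in a two-sided permutation test over tags, against 1.5% of all constructs in the table, or 0.865% counting later alleles that were higher. With SV40, 2 of 453 passed, against 0.989% in the table. Without adjustment, 35 constructs had a permutation p under 0.05 with minP, which is 7.63% against 7.47% in the table, and 30 with SV40, which is 6.62% against 7.44%. No construct passed in both libraries, 0 of 449 tested in both, where 0.849% of the table did. The 3 calls belonged to rs12649368, with 1 construct in each library, and to rs13124775.

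The precision of these differences was low. The median SE of an allelic difference in the stretch was 0.48 on the log2 scale with minP and 0.53 with SV40, larger than the median size of the difference itself, which was 0.34 with minP and 0.37 with SV40. The median size over the table was 0.33 with minP and 0.37 with SV40. Differences of at least 2-fold were measured in 40 constructs with minP, 8.71% against 7.41% in the table, and in 54 with SV40, 11.9% against 10.3%. A small allelic difference was therefore not detectable at this precision, and most of the 2-fold ones did not pass the test.

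The T allele of rs12649368, a C/T variant at 89791154, was higher than the C allele in orientation RC. In window L with minP, the C-allele oligonucleotide had an activity of -2.18 ± 0.25 and the T-allele one of -0.40 ± 0.35. Activity here is the mean tag ratio minus the median tag of the library, in log2. T minus C was 1.78 ± 0.43 (SE, 28 T and 30 C tags), a 3.42-fold difference (permutation test, adjusted p = 0.0131). The same construct with SV40 gave 1.48 ± 0.56 and did not pass (permutation test, adjusted p = 0.354).

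In window C of that orientation the call came from the SV40 library instead. The C-allele activity was -2.14 ± 0.29 and the T-allele activity -0.33 ± 0.29 with SV40. T minus C was 1.81 ± 0.41 (32 T and 33 C tags), or 3.51-fold (permutation test, adjusted p = 0.00688). With minP it was 0.69 ± 0.34 (permutation test, adjusted p = 0.658). Window R gave 0.47 ± 0.43 with minP and 0.92 ± 0.45 with SV40, neither past the threshold. All 6 values in orientation RC thus had T higher, although both libraries carry the same tags and are not independent measurements of a sequence.

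Orientation F of rs12649368 showed no such order. T minus C was 1.17 ± 0.54 in window C, -0.33 ± 0.63 in window L and -0.90 ± 0.75 in window R with minP. The C allele had 13.1 to 14.4 input reads per tag in this orientation with minP and 13 passing tags in each window, so these 3 values rest on little. Averaged over all tested constructs, T minus C was 0.48 with minP (permutation test, adjusted p = 0.681) and 0.67 with SV40 (adjusted p = 0.498), and rs12649368 was not called as a variant. The 2 calls also differed in their parts. In RNA counts alone, window L with minP gave 1.31 (permutation test, adjusted p = 0.101) and in input counts alone -0.47, so part of that ratio came from fewer input reads of the T allele. In window C with SV40, RNA counts alone gave 2.14 (permutation test, adjusted p = 0.00474) and input counts alone 0.32 (adjusted p = 0.609).

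The A allele of rs13124775, an A/G variant at 89826360, had a higher mean tag ratio than the G allele in all 6 constructs of both libraries, an order that did not hold in every construct when tags with 0 RNA reads were left out or counts were summed. G minus A lay between -1.23 and -0.59 over the 6 constructs with minP and between -2.29 and -1.09 with SV40. Of 73 variants of the stretch with enough constructs (at least 5 in each library), rs13124775 alone had 1 sign throughout. Among 555 such variants of the whole series, 5 did (0.901%). Its mean over constructs was -0.84 ± 0.23 with minP (136 G and 179 A tags, permutation test, adjusted p = 0.0141). With SV40 it was -1.75 ± 0.28 (134 G and 180 A tags, permutation test, adjusted p = 0.00121, unadjusted p = 1e-05, the smallest that these resamples can give). It was the only 1 of the 80 variants called by its mean in either library, against 1.82% of the variants in the table with minP and 1.32% with SV40. Variants with the earlier allele higher, as here, made up 0.495% and 0.825% of the table.

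Among single constructs of rs13124775, window L in orientation F passed with SV40. The A-allele activity was 0.04 ± 0.22 and the G-allele activity -2.04 ± 0.49. G minus A was -2.07 ± 0.54 (24 G and 31 A tags), a 4.21-fold difference (permutation test, adjusted p = 0.0135). With minP the same construct gave -0.94 ± 0.52 (permutation test, adjusted p = 0.673).

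The input of rs13124775 was also the most uneven of all variants. G-allele tags averaged 15.0 to 40.4 input reads with minP over the 6 constructs, and A-allele tags 86.1 to 249. The mean log2 input of G over A was -2.48 with minP and -2.36 with SV40, rank 1 by size of 606 variants in both, where the median size in the stretch was 0.098 and 0.124. Passing G tags more often had 0 RNA reads. With minP they were 45 of 136 (33.1%) against 6 of 179 A tags (3.35%), and with SV40 37 of 134 (27.6%) against 5 of 180 (2.78%).

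The size of the difference at rs13124775 moved with how these tags were treated. Without tags at 0 RNA reads, the mean over constructs was -0.03 with minP (permutation test, adjusted p = 0.968) and -0.86 with SV40 (adjusted p = 0.0788), and neither passed. Single constructs then turned sign with minP, to 0.04 in window C, orientation RC, 0.03 in window L, orientation F, and 0.25 in window R, orientation RC. From summed counts the mean was -0.14 and -0.59, with 0.62 in window R, orientation F, with minP and 0.10 in window C, orientation RC, with SV40. From median tags the mean was -1.45 and -2.57. With at least 50 input reads per tag it grew instead, to -2.28 with minP over 2 constructs, window L in orientation F (permutation test, adjusted p = 0.0114) and window C in orientation RC (adjusted p = 0.0292). With SV40 1 construct was left, window R in orientation RC, at -4.33 (10 G and 27 A tags, permutation test, adjusted p = 0.00176). In RNA counts alone it was -3.14 and -3.79, and in input counts alone -2.30 and -2.04. No construct of rs13124775 had at least 50 input reads per tag in both alleles, and the part of the uneven input in the difference was not tested.

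The next constructs fell short of the threshold. With minP these were rs7668636 in window C, orientation RC (T minus C 1.82 ± 0.60, permutation test, adjusted p = 0.170) and rs28542213 in window C, orientation RC (1.64 ± 0.63, adjusted p = 0.356). Then came rs4693976 in window R, orientation F (-1.08 ± 0.43, permutation test, adjusted p = 0.378), rs7668636 in window R, orientation RC (-0.85, adjusted p = 0.392) and rs7687539 in window R, orientation F (-1.16, adjusted p = 0.425). The 2 constructs of rs7668636 had opposite signs in the same orientation. With SV40 the nearest was rs7695732 in window R, orientation F, where G minus C was -1.17 ± 0.35 (permutation test, adjusted p = 0.0880) and both alleles lay above the median tag by more than 2-fold. rs79524934 in window L, orientation RC (-1.34 ± 0.40, adjusted p = 0.108), rs13124775 in windows R and L, orientation RC (-2.29 ± 0.71 and -1.74 ± 0.62, adjusted p = 0.145 and 0.270), and rs28529050 in window L, orientation RC (-1.78, adjusted p = 0.291) followed by the permutation test.

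Allelic differences did not differ detectably between the promoter libraries. Of 416 constructs tested for a change of the allelic difference from minP to SV40, 0 passed the permutation test, against 0.061% of the table. Without adjustment, 34 of the 416 had a permutation p under 0.05, against 198 of 3278 in the table. The lowest adjusted p was 0.301, for rs2446301 in window R, orientation RC (minP minus SV40 -0.73). With 1 library per group, this compares libraries and not promoters.

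Activity varied more between oligonucleotides of the stretch, including those of 1 variant, than between the alleles of a construct. The median size of F minus RC in a window was 0.71 with minP and 0.96 with SV40, against 0.34 and 0.37 between alleles. With minP, 79 of 926 measured oligonucleotides (8.53%) lay at least 2-fold above the median tag of the library, against 5.12% of the table, and 200 lay at least 2-fold below it, against 19.6%. With SV40, 81 of 919 were higher, against 6.12% of the table, and 266 were lower, against 26.5%. No test was made, because the labels name no control sequences. Higher and lower mean relative to the median tag. In both libraries at once, 63 of 914 were higher, against 4.19%, and 185 lower, against 17.8%. The median activity was -0.10 with minP and -0.24 with SV40, against -0.13 and -0.26 in the table, and values ran from -2.90 to 3.22 with minP and from -3.63 to 3.36 with SV40.

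High and low values were both more frequent where the plasmid input was low, here as in the whole table. With minP, 36 of 220 oligonucleotides with under 50 input reads per tag were higher (16.4%), against 43 of 706 with more (6.09%), where the table had 10.6% and 3.39%. With SV40 these were 36 of 248 (14.5%) and 45 of 671 (6.71%), where the table had 10.3% and 4.64%. Lower oligonucleotides made up 32.7% of those with under 50 input reads per tag and 18.1% of the others with minP. The table had 36.0% and 14.4%. With SV40 they made up 50% and 21.2%, where the table had 53.9% and 16.9%. For lower oligonucleotides the gap between the input classes was thus smaller in the stretch than in the table. Both alleles of a construct, which share all but 1 base and carry separate tags, were compared within a library. Their input was mostly alike, with a median size of the log2 input ratio per variant of 0.098 with minP and 0.124 with SV40. The comparison therefore cannot test for an effect of input. The activities of the 2 alleles correlated at r = 0.853 with minP over 459 pairs and 0.857 with SV40, against 0.814 and 0.826 in the table. Both alleles were higher in both libraries in 19 of 449 constructs (4.23%), in 15 variants, against 2.4% in the table. Of the 314 constructs whose alleles both had at least 50 input reads per tag, 9 did so (2.87%, in 8 variants), against 1.08% in the table. Both were lower in both libraries in 74 of 449 (16.5%), against 12.7%.

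High oligonucleotides were most frequent at both ends of the stretch. In the last 10000 bases, from 89830000, 28 of 173 oligonucleotides were higher with minP and 31 of 174 with SV40. The first 10000 bases had 17 of 90 and 13 of 86. The other 6 intervals of that length had 2 to 9 with minP, of 80 to 142 measured, and 2 to 10 with SV40, of 79 to 143. Of the 17 in the first interval with minP, 6 belonged to rs10001319 and 4 to rs7682431. All of these lay in orientation F, which had a mean of 16.0 and 10.8 input reads per tag at these variants. Each of these variants gave 3 of the 13 with SV40. Mean activity in orientation F was 0.19 in the last interval and 0.28 in the first with minP, against -0.21 and -0.89 in orientation RC. Orientation F also had the lower mean input there, 93.0 reads per tag in the last interval and 100.6 in the first with minP. Orientation RC had 175.9 and 155.5. With SV40 the last interval had 76.3 in F and 172.1 in RC. The part of input in these counts was not tested.

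The highest activity of the stretch belonged to rs10019681, a C/T variant at 89832532, in window C, orientation RC. Its C allele had 3.22 ± 0.22 with minP, or 9.32-fold above the median tag, and its T allele 3.13 ± 0.25, or 8.78-fold. With SV40 these were 3.19 ± 0.36 and 3.36 ± 0.24. The alleles differed by less than their errors, and in both promoters the 2 oligonucleotides stood first. In raw reads with minP, the C allele had 36.0 input and 109 RNA reads per tag and the T allele 31.9 and 100, in a library pair with fewer RNA than input reads. The same window read in orientation F was low, -1.93 ± 0.24 for C and -2.37 ± 0.24 for T with minP. Window R in orientation RC was near the median tag, at 0.12 and -0.03, and window L in that orientation had 3.10 and 4.43 input reads per tag and was not measured.

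Over the next bases, rs7695732, rs72665823, rs2609262 and rs2609261 had higher mean activity in orientation F than in RC, though not in every window. At rs7695732 (89832791, C/G), the 6 oligonucleotides in orientation F ran from 0.99 to 1.91 with minP and from 0.88 to 2.52 with SV40, and those in RC from -0.17 to 0.72 with minP. Its highest was the C allele in window R, 1.91 ± 0.30 with minP and 2.52 ± 0.24 with SV40, on 92.8 and 74.3 input reads per tag. At rs72665823 (89833082, A/G), window L in orientation F gave 2.21 ± 0.44 for A and 2.01 ± 0.50 for G with minP, and 2.61 ± 0.57 and 2.95 ± 0.52 with SV40. These 2 oligonucleotides had 20.7 input reads per tag each with minP, against 530 and 501 in orientation RC.

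At rs2609261 (89835485, A/G), window L in orientation F gave 1.31 ± 0.24 for A and 1.29 ± 0.24 for G with minP, and 1.84 ± 0.25 and 1.76 ± 0.26 with SV40. Both alleles lay at least 2-fold above the median tag there with 119 and 111 input reads per tag with minP, so this window was measured well. Window R was 1.50 ± 0.35 and 1.51 ± 0.37 with minP. At rs2609262, 47 bases away, window L in orientation F was alike, at 1.28 ± 0.44 for A and 1.05 ± 0.38 for G, while window R had -0.53 on 8.93 input reads per tag for the only allele measured. In orientation RC, window L lay below the median tag with SV40 at both variants, at -1.37 for rs2609262 and -1.11 for rs2609261. Further on, rs2609259 (89837808, A/C) in window C, orientation F, reached 2.50 ± 0.60 for A and 1.99 ± 0.61 for C with minP, but on 6.97 and 13.9 input reads per tag.

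Constructs high for both alleles in both libraries also lay elsewhere in the stretch, in either orientation. At rs1563688 (89765009, C/T), window R in orientation RC had 2.38 ± 0.25 for C and 1.77 ± 0.29 for T with minP, and 2.54 ± 0.24 and 1.92 ± 0.34 with SV40. Its other windows and orientation F lay between -0.39 and 0.53 with minP. At rs9991039 (89765872, A/T), window C in orientation RC had 1.93 ± 0.38 for A and 2.14 ± 0.33 for T with minP, and window R 1.17 ± 0.24 and 1.13 ± 0.36. Both windows were high in 1 orientation only, since window C in orientation F had -0.30 and 0.24. At rs58281712 (89810956, C/G), window R in orientation RC had 1.20 ± 0.20 and 1.19 ± 0.19 on 156 and 217 input reads per tag with minP, the alleles again differing by less than their errors. At rs4693975 (89821884), the C allele in window C, orientation F, had 1.50 ± 0.38 with minP and 1.65 ± 0.31 with SV40.

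At rs7668636 (89819307, C/T), window R in orientation F had 1.25 ± 0.20 for C and 1.13 ± 0.17 for T with minP on 245 and 253 input reads per tag. Window C in that orientation, with the same variant, was low at -1.74 ± 0.32 and -1.38 ± 0.38. The sign of the activity thus differed between these windows and not between the alleles. At rs1246629 (89819423, C/T), window L in orientation F had 1.27 ± 0.26 and 1.74 ± 0.29 with minP and 1.61 ± 0.25 and 2.37 ± 0.25 with SV40. The remaining constructs high for both alleles in both libraries were window C in orientation RC of rs2100679 and of rs76704358, window L in orientation RC of rs2609264, and the further windows of rs7695732, rs2609261 and rs2609259.

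A few single oligonucleotides were high on very little input. At rs10001319 (89763676, A/T), all 6 in orientation F lay at least 2-fold above the median tag with minP, up to 1.85, on 10.2 to 24.6 input reads per tag, while those in RC lay between -2.70 and -1.66. rs7682431 C in window C, orientation F, had 2.53 ± 0.53 with minP on 9.93 input reads per tag. rs2464528 C in window L, orientation F, had 2.97 ± 0.53 with SV40 on 9.40 and was not measured with minP.

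Among the lowest, rs62308744 (89782561, C/T) was low throughout orientation F. Its 6 oligonucleotides ran from -2.90 to -1.90 with minP and from -3.63 to -1.63 with SV40. The lowest with minP was T in window C, -2.90 ± 0.26 on 152 input reads per tag, and the lowest with SV40 was C in window L, -3.63 ± 0.25 on 11.1. Orientation RC of this variant had 1.2 to 6.86 input reads per tag over both libraries and was not measured, so its activity in that direction is unknown. On input as low as that of window L, a value of this size lies near what the added read alone gives.

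The other 4 lowest with minP were rs76704358 T in window R, orientation F (-2.90 ± 0.29), rs11735482 T in window L, orientation F (-2.81 ± 0.29), rs2609264 T in window L, orientation F (-2.70 ± 0.24), and rs10001319 A in window R, orientation RC (-2.70 ± 0.32). With SV40 they were rs2609264 T in window C, orientation F (-3.60 ± 0.35), rs6815970 C in window R, orientation F (-3.60 ± 0.27), rs2085600 A in window L, orientation F (-3.43 ± 0.12) and rs62308744 C in window R, orientation F (-3.22 ± 0.25). All but rs10001319 lay in orientation F. rs2085600 differed between the libraries, with -1.32 ± 0.27 with minP. Its input was 459 reads per tag with SV40 against 103 with minP, and it is 1 of 48 oligonucleotides in 5 variants of the stretch whose names carry a mark, mod, that the sources used here do not explain.

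The same sequence read in opposite directions often gave different tag ratios. With minP, F and RC differed in 104 of 219 windows (47.5%) in a permutation test over tags within each allele, against 43.7% of the table. F was higher in 63 of the 219 (28.8%, against 22.2% of the table) and RC in 41 (18.7%, against 21.6%). With SV40, 116 of 214 windows (54.2%) differed, against 45.9%. F was higher in 67 of the 214 (31.3%, against 23.1%) and RC in 49 (22.9%, against 22.8%). The input itself differed between directions even more often, in 179 of the 219 windows with minP (81.7%, against 81.6% in the table) and 172 of the 214 with SV40 (80.4%, against 80%) by the same test on input counts alone. Activities of the same window in F and RC, averaged over alleles, correlated at r = -0.165 over 227 windows with minP and -0.060 over 226 with SV40. Using only oligonucleotides with at least 50 input reads per tag, r was 0.145 over 140 windows with minP and 0.113 over 137 with SV40. Not all of these windows had every oligonucleotide at that depth, since 120 windows with minP and 114 with SV40 did so in the orientation test. By contrast, windows of 1 variant in the same orientation correlated at 0.454 for L with C, 0.503 for C with R and 0.259 for L with R with minP.

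The largest difference between directions was window C of rs10019681, where F minus RC was -5.33 ± 0.24 with minP and -5.46 ± 0.27 with SV40 (permutation test, adjusted p = 6.62e-05 and 6.40e-05). In RNA counts alone it was -2.44 with minP, and in input counts alone 2.88, since orientation F had 310.8 input reads per tag and RC 34.0. Next with minP came rs7682431 in windows R and C (4.76 ± 0.36 and 4.39 ± 0.38), rs2609259 in window C (4.51 ± 0.48) and rs2609264 in window L (-3.91 ± 0.38), all at the same adjusted p. With SV40 they were rs2609259 in window C (4.68 ± 0.51), rs2464528 in window L (4.33 ± 0.41), and rs2609264 in windows L and C (-3.76 ± 0.38 and -3.61 ± 0.45). In each of these but window C of rs2609264, the direction with the higher ratio had fewer input reads per tag over all its tags by more than 4-fold, and all kept their sign in RNA counts alone.

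Over the called windows of the stretch, the higher direction had the lower input in 64 of 104 with minP (61.5%, against 50.6% in the table) and in 66 of 116 with SV40 (56.9%, against 43.1%). Some windows with alike input differed as well. At rs2609261, window L gave F minus RC of 2.91 ± 0.34 with SV40 on 90.7 and 108.4 input reads per tag, and 2.10 ± 0.32 with minP on 115.0 and 109.4. At rs115743183, window C gave 2.95 ± 0.28 with SV40 on 140.9 and 191.9, with RNA reads of 273.2 per tag in F and 57.9 in RC. Input was not alike in window R of rs58281712, where F minus RC was -2.80 ± 0.30 with minP. There F, the lower direction, had 23.6 input reads per tag and RC had 185.9. How far input depth enters any of these direction differences was not tested.

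Several variants lay within 100 bases of each other, and how much their windows overlap is not in the table. rs11729108 and rs11724744 lie 2 bases apart. With minP in orientation F they had 0.35 and 0.22 in window L, -2.16 and -2.06 in window C, and -2.18 and -1.97 in window R. In orientation RC, window L was alike at -0.14 and -0.21, but window C had -2.16 and 1.14 and window R 1.65 and 0.75. With minP, orientation F thus gave like values for this pair in all 3 windows and RC did not. With SV40, orientation RC had -0.50 and -1.02 in window L, -2.50 and 0.88 in window C, and 1.01 and 0.91 in window R. The difference between the 2 variants was largest in window C of orientation RC in both libraries. rs7668636 and rs7690839, 17 bases apart, had -1.56 and 0.01 in window C, orientation F, and -1.04 and 0.76 in orientation RC. rs2609262 and rs2609261, 47 bases apart, had 1.17 and 1.30 in window L and 0.84 and 0.74 in window C, both in orientation F.

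The other pairs also differed in several windows. rs17815912, 79 bases before rs12649368, did not share its low values in orientation RC, with -0.29, 0.31 and -0.31 in windows L, C and R against -1.29, -1.20 and -1.79 with minP. rs62308746 and rs2869952, 88 bases apart, had 0.47 and 0.03 in window C, orientation F, and -0.46 and 0.31 in orientation RC. rs7690839 and rs1246629, 99 bases apart, both lay above the median tag in window L, orientation F, at 0.69 and 1.50.

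At the edges, rs74610824, the first variant, had a mean activity over its oligonucleotides of -1.40 with minP and -1.48 with SV40. The last, rs4693976, had -0.64 and -0.88. The nearest variants outside the range were rs10023099 at 89759700 and rs6835019 at 89847655. Their mean activities were 0.23 and -0.49 with minP and -0.12 and -0.26 with SV40, both higher than those of the members beside them.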

How the data were processed

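Tags were counted in 4 libraries of BEAS-2B reporter plasmids and RNA. The authors deposited whole-number read counts per tag, per the labels from single reads of 36 nt. Matching of reads to tags, filters and deduplication are not given in the sources used here, and no molecular identifiers are named, so reads are not independent molecules. Counts were used as deposited (Python 3.11.15, NumPy 2.4.6, pandas 2.3.3, Numba 0.67.0). Tags needed 10 input reads, alleles 10 tags, and 1 was added to each count. Allelic, variant mean, orientation and promoter tests permuted names over tags 100000 times, two-sided, with Benjamini-Hochberg adjustment over the whole table at 0.05. The allelic and variant mean tests were also run on simulated data, and the orientation and promoter tests were not. Count models were not used, as each group had 1 library.

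Members and lists were chosen with earlier results of these data known. Named were called constructs and variants, the 5 nearest misses, 5 largest orientation differences and 5 highest and lowest oligonucleotides per library, variants of 1 sign, neighbours within 100 bases and edge variants. Constructs high for both alleles, rs115743183, and rs58281712 and rs2609261 beyond these were named after their values were seen. Alternatives used 1 or 50 input reads per tag as the minimum, 0.5 as pseudocount, 20 tags per allele, no 0-RNA or no TC tags, summed counts, medians, RNA or input counts alone and, for activity, the mean tag and 4-fold.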

Additional observations from a re-analysis of the deposited data

How the results depend on the processing

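Counts of calls here are by permutation test at an adjusted p under 0.05. The allelic call count with minP (1) became 2 with 50 input reads per tag (0.559%, against 1.72% of the table) and 3 from summed counts (0.654%, against 2.13%). It became 6 in RNA reads alone (1.31%, against 0.778%), all in rs13124775, and 18 in input reads alone (3.92%, against 4.06%). With SV40 (2) it became 6 from summed counts (1.32%, against 1.77%) and 5 from medians (1.1%, against 1.25%). It became 7 in RNA alone (1.55%, against 1.31%), 6 of them in rs13124775, and 12 in input alone (2.65%, against 3.34%). In constructs with a mean of at least 50 input reads per tag it became 1 (0.313%, against 1.02%). The variant mean count (1 in each library) became 2 with 50 input reads (2.53% with minP and 2.56% with SV40, against 3.49% and 2.68% of the table). Of these 2, 1 had the later allele higher and so was not rs13124775. In deep oligonucleotides it stayed 1 in both libraries (1.28% and 1.3%, against 3.67% and 3.38%), with the later allele higher, so not rs13124775 either. It became 0 without 0-RNA tags (against 1.82% and 0.99%), 3 in RNA alone (3.75%, against 4.29% and 4.95%) and 5 in input alone (6.25%, against 8.75%). At 1 input read it became 0 with minP (against 0.66%). The orientation count with minP (104 of 219 tested) became 42 of 132 with 50 input reads per tag (31.8%, against 33.7% of the table). It became 40 of 120 in deep oligonucleotides (33.3%, against 33.5%) and 179 of 219 in input alone (81.7%, against 81.6%). With SV40 (116 of 214) it became 46 of 126 with 50 input reads (36.5%, against 36%) and 44 of 114 in deep oligonucleotides (38.6%, against 34.6%). Higher oligonucleotides (79 with minP, 81 with SV40) became 31 and 32 with 50 input reads per tag (4.17% and 4.47%, against 2.49% and 2.63% of the table). They became 131 and 148 from medians (14.1% and 16.1%, against 10.7% and 12.9%) and 33 and 36 in deep oligonucleotides (4.67% and 5.37%, against 2.44% and 2.64%). Relative to the mean tag they were 121 and 142 (13.1% and 15.5%, against 9.28% and 12.9%). At 4-fold they were 12 and 18 (1.3% and 1.96%, against 1.03% and 1.44%). Lower ones (200 and 266) became 64 and 96 at 4-fold (6.91% and 10.4%, against 5% and 8.42%). With minP they became 119 without 0-RNA tags (13.8%, against 11.7%). With SV40 they became 161 both from summed counts (17.5%, against 15.1%) and in deep oligonucleotides (24%, against 21.3%).

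Among the named results, those called under either setting turned sign in input reads alone. With minP these were rs12649368 window L, RC (-0.47), rs4693976 window R, F (0.87), rs7687539 window R, F (1.25), and F minus RC at rs10019681 C (2.88), rs7682431 R (-2.12) and C (-2.86), rs2609259 C (-1.87) and rs2609264 L (3.14). With SV40 they were F minus RC at rs10019681 C (2.77), rs2609259 C (-1.70), rs2464528 L (-1.17), and rs2609264 L (2.35) and C (0.27). Uncalled values that turned were, with minP, rs13124775 window L, F, without 0-RNA tags (0.032), rs7687539 window R, F, in RNA alone (0.091) and rs7668636 window R, RC, in input alone (0.011). With SV40 they were rs7695732 window R, F (0.64), rs79524934 window L, RC (0.21) and rs28529050 window L, RC (0.0085), all in input alone. With 50 input reads per tag, rs12649368 in window L, RC, fell short with minP (1.40, adjusted p = 0.248, permutation test). Subsets of deep oligonucleotides, and RNA or input alone for variant means and orientation, were chosen after seeing the data. Where values changed, the cause was not tested. No analysis paired by replicate was possible because each group has 1 library and the labels give no replicate numbers. The promoter test paired the 2 promoter libraries by tag.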
